A study of Homo sapiens with 6 samples.

Results

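7SL RNA is the RNA scaffold of the signal recognition particle (SRP). The genes and pseudogene copies of 7SL that carried a GAPDH crosslink were examined in MOLM-13 cells, a human acute myeloid leukaemia line. Members were all entries of the 3 deposited peak lists whose gene symbol starts with RN7SL. This gave 10 loci of 947 genes in the lists and 33 peaks, namely the genes RN7SL1, RN7SL2 and RN7SL3 and 7 pseudogene copies. GAPDH (glyceraldehyde-3-phosphate dehydrogenase) is an enzyme of glycolysis that also binds RNA. It was precipitated together with the RNA crosslinked to it by ultraviolet light, and the RNA was sequenced (CLIP-seq). The culture medium held galactose, a low amount of glucose or a normal amount of glucose, and 2 samples were prepared per condition. The authors had joined both samples of a condition into 1 list, so that no value below has a spread between replicates and no test between conditions was possible. The lists give positions and gene names, with no strand, read number or depth. The identity of the cell line could not be checked against marker genes, because the lists hold no expression levels. All cells were of the same line, with no change of genotype in the labels, and the question put by the design is whether the RNA contacts of GAPDH change with the sugar supplied.

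The SRP binds the signal peptide of a nascent secretory or membrane protein and brings its ribosome to the endoplasmic reticulum. 7SL is made by RNA polymerase III. Its 5′ and 3′ ends fold together into the Alu domain, which binds SRP9 and SRP14 and holds back elongation, and its middle forms the S domain, which binds SRP19, SRP54, SRP68 and SRP72. The Alu repeats of primate genomes descend from the ends of 7SL, and many further copies of the whole RNA lie in the genome as pseudogenes. A read from such a family can fit several places, and this bears on every locus named here.

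All positions below refer to RN7SL1. It lies at chr14:49586580-49586878 on the plus strand of hg38, 299 nt long, within an intron of RPS29, a gene for a protein of the small ribosomal subunit on the opposite strand. Crosslink sites in the interior of RN7SL1, RN7SL2 or RN7SL3, away from the 3′ end, fell on bases 17, 37, 99, 122, 131 and 180, counted from 1 at the 5′ end.

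The sites 2 nt before the first annotated base are shown because this place recurred at 4 loci. The capital is the crosslink site, with 20 nt on either side, written on the strand of the copy. At these sites the 20 nt upstream differ between the loci and the RNA itself begins with gccggg. In hg38 they are chr14:49586558-49586598 (RN7SL1, plus strand), chr14:49862831-49862871 (RN7SL2, minus), chr2:11584751-11584791 (RN7SL674P, plus) and chr3:113632682-113632722 (RN7SL767P, plus).
RN7SL1: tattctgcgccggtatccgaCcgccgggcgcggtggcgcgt
RN7SL2: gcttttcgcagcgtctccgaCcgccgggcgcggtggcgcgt
RN7SL674P: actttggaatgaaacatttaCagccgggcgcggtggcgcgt
RN7SL767P: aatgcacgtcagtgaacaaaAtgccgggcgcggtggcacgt

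A peak is a distinct interval of a list. Per the study's methods, neighbouring crosslink sites were merged and lone ones lengthened by at most 50 nt. The narrowest peaks of the lists are 101 nt wide, and their middle base was read as the site. The outermost sites of a wider, merged peak were taken to lie 50 nt in from its ends, which is an inference from this width. 7SL peaks numbered 13 of 337 in galactose and 7 of 484 in low glucose, against 13 of 495 in normal glucose. Their share was 3.86% (95% Clopper-Pearson interval 2.07 to 6.51%) in galactose, 1.45% (0.583 to 2.96%) in low glucose and 2.63% (1.41 to 4.45%) in normal glucose. The intervals cover counting error over peaks only, and all 3 overlap one another. They treat peaks as independent, which near-identical copies are not, so their overlap is no test between conditions. The peaks fell on 8 loci in galactose and 5 in low glucose, against 8 in normal glucose. RN7SL1, RN7SL2 and RN7SL3 accounted for 7 peaks in galactose and 5 in low glucose, against 8 in normal glucose, and the pseudogene copies for 6, 2 and 5. The low glucose list thus held the fewest 7SL peaks, although it was longer than the galactose list. Without peaks also given to a further gene the counts were 5 in galactose and 4 in low glucose, against 4 in normal glucose, and low glucose was no longer the lowest alone. How far read depth moves with this count was not tested, since the lists hold no depth.

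RN7SL1 had a peak over its 5′ end and a peak over its 3′ end in all 3 lists. At the 5′ end the first site lay 2 nt before the annotated first base in every list. The last site of that peak was base 99 in galactose (chr14:49586528-49586728, 201 nt), against base 17 in low glucose and base 17 in normal glucose (chr14:49586528-49586646 in both, 119 nt). The 3′ peak had its sites 1 to 3 nt past the last base in galactose and 2 to 3 nt past it in low glucose and in normal glucose. Normal glucose alone had a further RN7SL1 peak, with its single site on base 180 (chr14:49586709-49586809). The terminal peaks were thus common to the conditions. In the interior, base 17 was common to low glucose and normal glucose, base 99 was read in galactose alone and base 180 in normal glucose alone. Sites between the ends of the wide galactose peak are not listed, so whether it also holds base 17 cannot be told.

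RN7SL2 lies on the minus strand at chr14:49862550-49862849 over an exon of the lncRNA ENSG00000282885 on the same strand, and each of its peaks was also given to that lncRNA. A peak with its site 2 nt before the first base was present in galactose, low glucose and normal glucose at identical coordinates (chr14:49862801-49862901). Low glucose had no other RN7SL2 peak. Galactose had a site on base 122 and normal glucose a site on base 131. The 3′ end carried sites from the last base to 1 nt past it in galactose, and a site on the last base in normal glucose. RN7SL2 was thus marked at both ends and the interior in galactose and normal glucose, and at the 5′ end alone in low glucose.

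RN7SL3 lies on the minus strand at chr14:49853616-49853914, with no other gene annotated over it. It had the same 2 single-site peaks in galactose, low glucose and normal glucose, on base 37 (chr14:49853828-49853928) and on base 180 (chr14:49853685-49853785). No list had a site at either of its ends. RN7SL3 was the only locus with the same set of peaks in all 3 lists.

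**Figure D1:**
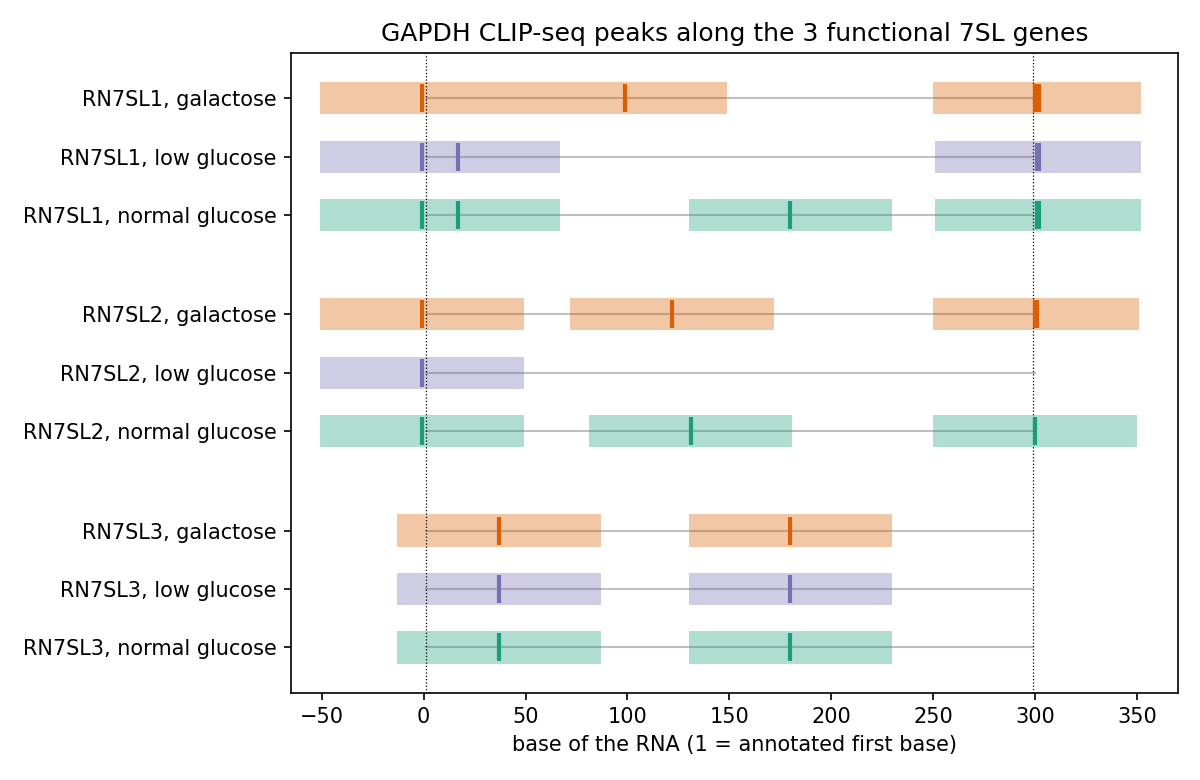
Peaks of RN7SL1, RN7SL2 and RN7SL3 in galactose, low glucose and normal glucose, by base of the RNA (1 is the annotated first base, 299 the last of RN7SL1). Shaded bars are the deposited peaks, ticks the first and last site of each peak, grey lines the RNA and dotted lines its ends. RN7SL3 has the same sites, bases 37 and 180, in all 3 lists, and RN7SL2 has 3 peaks in galactose and 1 in low glucose, against 3 in normal glucose.

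The 3 genes are nearly the same sequence. RN7SL2, annotated with 300 nt and so 1 base longer, differs from RN7SL1 at 4 aligned bases (C52T, T53G, T69C and G275A, with the RN7SL1 base first) and RN7SL3 at 7 (G62C, C70T, A118G, C242T, C285T, C293T and T295C). Around base 180 the nearest difference of RN7SL3 from RN7SL1 is 62 nt away on both sides, so the site that normal glucose gave to RN7SL1 and all 3 lists gave to RN7SL3 has the same neighbourhood in both genes. The 30 nt after it occur 4 times in the genome. By contrast, the 30 nt after base 37 of RN7SL3 occur once, and G62C lies 25 nt after that site. The 30 nt after the 5′ end site occur 3 times for RN7SL1 and for RN7SL2, and the 30 nt after every 3′ end site occur once in the genome.

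All other members are pseudogene copies, 7 of 677 annotated in GENCODE release 44 (1.03%). RN7SL767P, at chr3:113632704-113632998 on the plus strand, was the only such copy in all 3 lists. Its site 2 nt before the first base was present in galactose, low glucose and normal glucose. Galactose added a single site on base 180 (chr3:113632833-113632933), and in normal glucose the 5′ peak was 204 nt wide and ended with a site on base 102 (chr3:113632652-113632855). The 30 nt after each of these 3 sites occur once in the genome. After the site on base 102 they differ from RN7SL1 at 1 base, and after the site on base 180 at 11.

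RN7SL674P lies at chr2:11584773-11585047 in an intron of GREB1, an oestrogen-regulated gene, on the same strand. Its site on base 37 was present in galactose and in normal glucose, and galactose also had the site 2 nt before the first base (chr2:11584721-11584859 in galactose, against chr2:11584759-11584859 in normal glucose). RN7SL381P lies at chr16:85659378-85659675 in an intron of GSE1 on the same strand, and had an identical peak on base 180 in galactose and in normal glucose (chr16:85659507-85659607). RN7SL396P lies at chr8:119862662-119862956 with no other gene over it, and likewise had an identical peak on base 180 in galactose and in normal glucose (chr8:119862791-119862891). None of these 3 copies had a peak in low glucose.

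The last 3 copies were each found in 1 list. RN7SL752P (chr3:129591349-129591635, in an intron of PLXND1, a semaphorin receptor gene on the opposite strand) had its site on base 180 in galactose. RN7SL151P (chr9:21699314-21699596, no other gene) had its site on base 180 in low glucose. RN7SL546P (chr14:102582888-102583177, minus strand, in an intron of the lncRNA ENSG00000289862 on the opposite strand) had its site on base 99 in normal glucose. That base was also the last site of the 5′ peak of RN7SL1 in galactose. A further gene, always one named here, was also given to 8 of 13 7SL peaks of the galactose list (28.5% of all its peaks), to 3 of 7 of the low glucose list (25.8%) and to 9 of 13 of the normal glucose list (36.8%).

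Placed on the RN7SL1 scale, the sites fell on few bases. Base 180 was a site in 7 of the 10 loci, 5 of them pseudogene copies. It carried a peak at 5 loci in galactose and at 2 in low glucose, against 4 in normal glucose, and RN7SL3 was the locus with this site in all 3 lists. The site 2 nt before the first base was present at 4 loci (RN7SL1, RN7SL2, RN7SL767P and RN7SL674P), all of them in galactose and 3 in low glucose, against 3 in normal glucose. Base 37 was a site at 2 loci (RN7SL3 and RN7SL674P), and base 99 at 2 (RN7SL1 and RN7SL546P). Sites at the 3′ end occurred at RN7SL1 and RN7SL2, and no pseudogene copy had one. The middle of a peak lay within 20 nt of an annotated end in 5 galactose, 4 low glucose and 4 normal glucose peaks. By the first or last site in place of the middle, these counts were 6, 4 and 5. Aligning the copies to RN7SL2 instead of RN7SL1 gave the same place for all 8 interior sites of pseudogene copies.

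**Figure D2:**
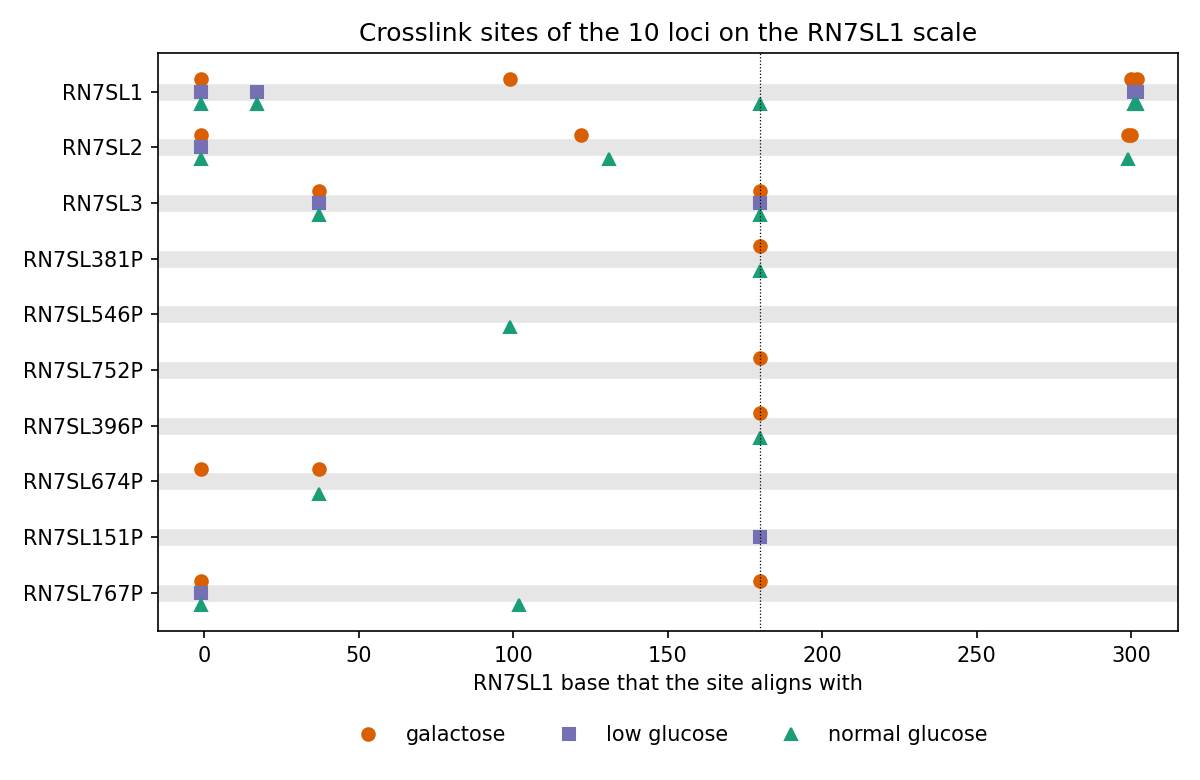
Called sites (the outermost sites of each peak) of the 10 loci, placed on the RN7SL1 base with which they align; sites outside a copy are counted on from its ends, so that the site 2 nt before the first base is drawn at -1. Circles are galactose, squares low glucose and triangles normal glucose. The dotted line is base 180, where 7 loci have a site.

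RNase T1, which trimmed the RNA, cuts after G, and the base before a site was therefore read on the strand of the copy. It was G in 5 of 9 single-site 7SL peaks of the galactose list and 2 of 5 of the low glucose list, against 5 of 10 of the normal glucose list. Over all single-site peaks with genes on 1 strand the share was 24.3% in galactose and 26.1% in low glucose, against 62.8% in normal glucose. The single-site 7SL peaks with G before the site were all on base 180, apart from RN7SL546P on base 99 in normal glucose. In merged peaks, G also came before the last sites on bases 17 and 99 of RN7SL1 and base 102 of RN7SL767P. All 7 loci with a site on base 180 had G before it and G on the site itself. These loci hold bases 171 to 185 of RN7SL1 without a change, so this is 1 sequence place met in several copies. The 7SL counts are therefore not of independent sites and cannot be weighed against the shares over all peaks. The base before the site 2 nt upstream of the first base was A at all 4 loci, and the base before the 3′ end sites was T. The part of T1 cutting in the place of these sites was not tested.

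The 2 ends of 7SL are far more repeated in the genome than its middle. The 20-mers of RN7SL1 that lie in bases 1 to 100 occur a median of 194 times (7 to 115644), and those in bases 251 to 299 a median of 1344 times (89 to 239037). Those in bases 101 to 250 occur a median of 14 times (3 to 111). Recurrent peaks, those in which over 50% of the 30-mers have a further copy in the genome, made up 7 of 13 7SL peaks of the galactose list (18.1% of all its peaks), 3 of 7 of the low glucose list (13.6%) and 6 of 13 of the normal glucose list (25.3%). The RN7SL1 site on base 17 was followed by 30 nt with 8743 copies, the most of any 7SL site, and the next was 48 copies after base 37 of RN7SL674P.

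The pseudogene copies with a peak were set against all 677. Their identity to RN7SL1 over its whole length was 78.6 to 85.3% with a median of 80.6%, against a median of 79.9% for all pseudogene copies. They differed in how that identity was spread. Over bases 1 to 150 their median identity was 94.0% (79.3 to 98.7%), against 78.7% for all copies, and over bases 151 to 299 it was 68.5% (59.7 to 91.3%), against 81.9%. RN7SL674P, RN7SL767P, RN7SL396P and RN7SL752P ranked 2, 3, 5 and 6 of 677 by identity over bases 1 to 150, at 98.7, 97.3, 94.7 and 94.0%, and had between 59.7 and 68.5% over bases 151 to 299. RN7SL381P and RN7SL546P had the opposite balance, with 79.3 and 80.7% over bases 1 to 150 and 91.3 and 89.3% over bases 151 to 299. RN7SL151P had 83.3% over the 5′ stretch and 75.2% over the 3′ stretch.

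The longest stretch that each copy shares exactly with RN7SL1, RN7SL2 or RN7SL3 was 83 nt in RN7SL674P, 69 nt in RN7SL396P, 61 nt in RN7SL752P, 51 nt in RN7SL151P, 48 nt in RN7SL546P, 47 nt in RN7SL767P and 41 nt in RN7SL381P. The median of these 7 was 51 nt, against 23 nt over all 677 copies (10 to 209 nt). By this length they ranked 3, 5, 6, 7, 11, 13 and 26. Stretches of at least 41 nt, the shortest among the 7, were found in 33 of all pseudogene copies (4.87%), a limit set by the members themselves. With RN7SL1 as the only reference, an alternative not planned beforehand, the median of the 7 was again 51 nt. RN7SL546P then had 35 nt, the shortest of the 7, and ranked 49. RN7SL381P ranked 18 and the others between 3 and 9. A long stretch did not go with a peak in every case. RN7SL5P (209 nt), RN7SL4P (192 nt) and RN7SL128P (75 nt) had no peak in any list. Ranks are given as a description, with no test, since reads cannot be traced to their copy from these lists.

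**Figure D3:**
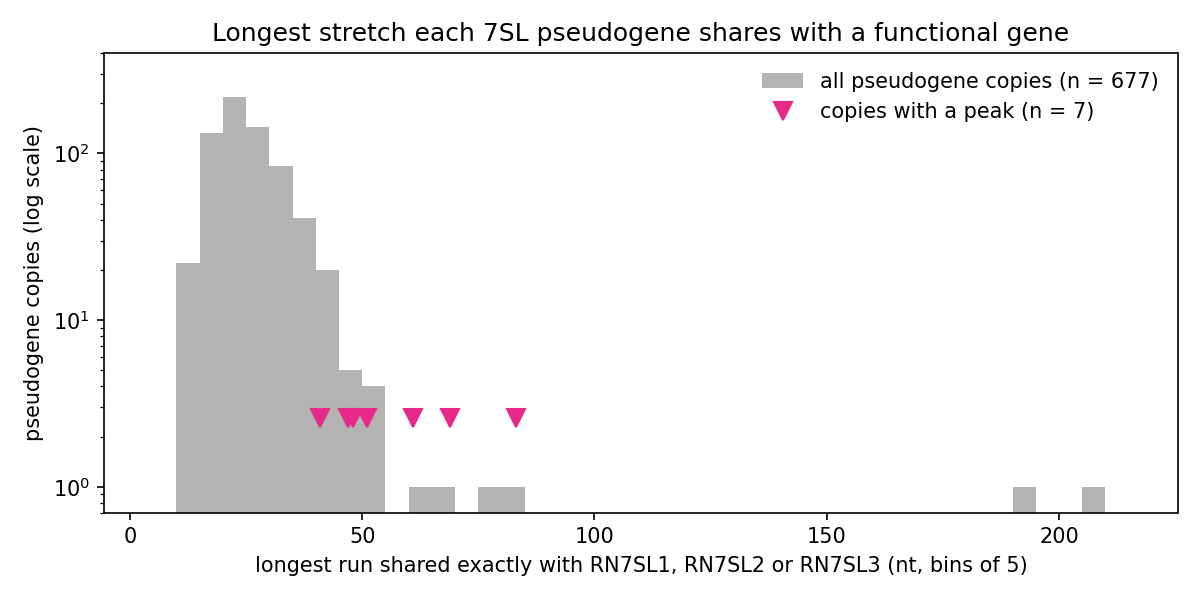
Longest stretch (nt, bins of 5) that each of the 677 pseudogene copies shares exactly with RN7SL1, RN7SL2 or RN7SL3; grey bars count copies on a log scale and triangles mark the 7 copies with a peak, which lie between 41 and 83 nt. The median over all copies is 23 nt.

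In 5 of the 7 copies a site lay inside that shared stretch, 3 to 10 nt before its last base. This was so for RN7SL752P and RN7SL396P, whose stretches run to base 185, for RN7SL381P, whose stretch runs to base 186, for RN7SL546P (site on base 99, stretch to base 102) and for RN7SL767P (site on base 102, stretch to base 112). In the 30 nt before base 180, RN7SL381P, RN7SL396P and RN7SL752P had no mismatch to RN7SL1, RN7SL767P had 2 and RN7SL151P had 3. In the 30 nt after it, RN7SL752P and RN7SL151P had 1 mismatch, RN7SL381P 5, RN7SL396P 8 and RN7SL767P 11. The 30 nt after the site were found once in the genome for RN7SL381P, RN7SL396P and RN7SL767P and 2 times for RN7SL752P and for RN7SL151P. The sequence downstream of base 180 thus set 3 of the 5 copies apart from all others, while the sequence upstream was shared with the functional genes in 3.

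Of 285 windows of 15 nt along RN7SL1, the window of bases 171 to 185 was the only one held by all 7 pseudogene copies with a peak. It was held by 108 of all 677 pseudogene copies (16.0%) and, with RN7SL1, RN7SL2 and RN7SL3, by all 10 loci.

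**Figure D4:**
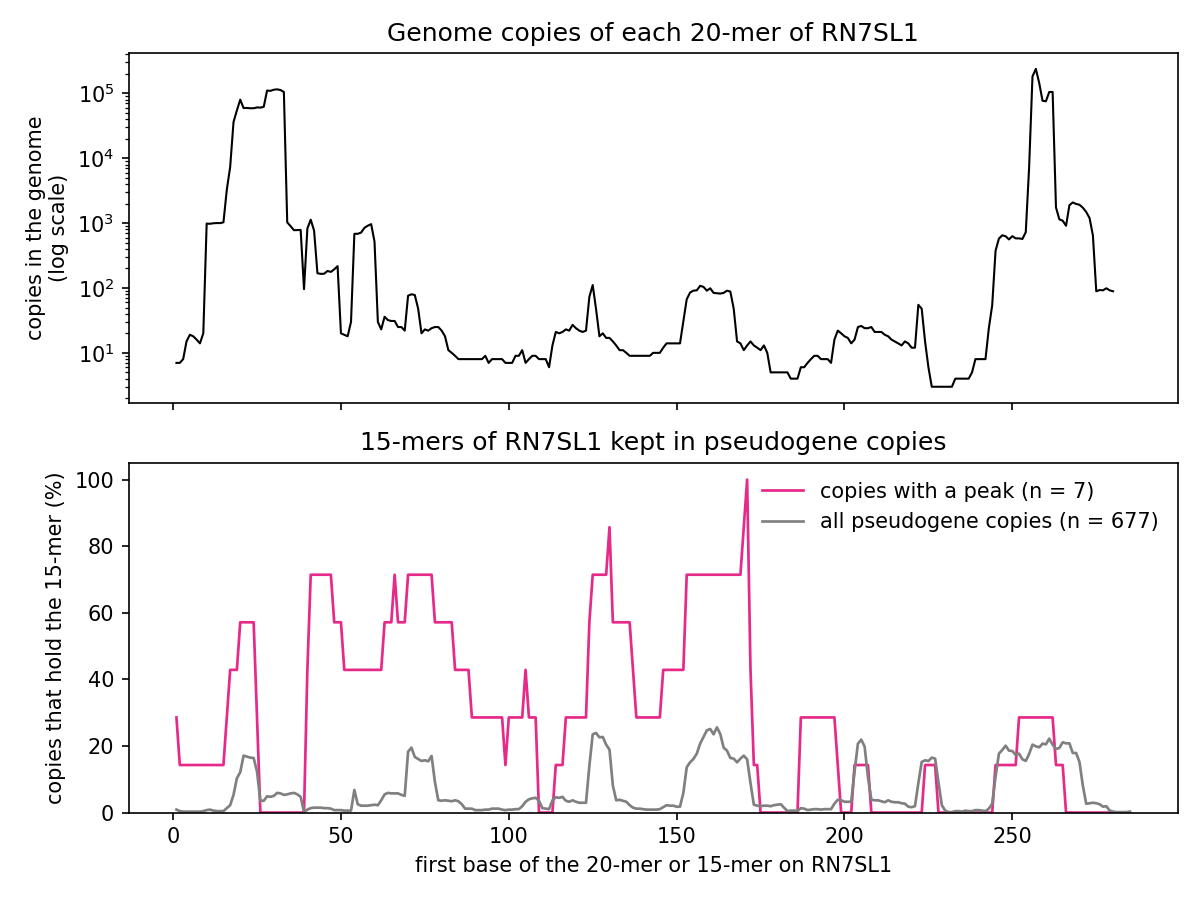
Above, number of copies in the genome (log scale) of each 20-mer of RN7SL1, by its first base. Below, share of the 7 pseudogene copies with a peak and of all 677 pseudogene copies that hold each 15-mer of RN7SL1. The share among copies with a peak reaches 100% at the 15-mer that starts at base 171 and is at 0% over many of the 15-mers after it.

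This window was chosen after its values were seen, and it holds base 180, the site of 7 loci. It also lay in 5 galactose, 2 low glucose and 4 normal glucose peaks, all of them 7SL peaks, and in none outside the 7SL loci.

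Peaks that overlap between lists were joined into 1 region, which gave 14 regions for 7SL and 951 in all. Of the 7SL regions 6 (42.9%, 95% Clopper-Pearson interval 17.7 to 71.1%) were present in all 3 lists, against 11.0% of all regions. They were the 5′ and 3′ regions of RN7SL1, both sites of RN7SL3, the 5′ end of RN7SL2 and RN7SL767P. The 5′ region of RN7SL1 also took in the normal glucose peak on base 180, which overlaps the end of the wide galactose peak. The regions present in galactose and normal glucose but not in low glucose numbered 5 (RN7SL2 interior, RN7SL2 3′ end, RN7SL674P, RN7SL381P and RN7SL396P), against 3.47% of all regions. None of the 7SL regions was present in galactose and low glucose only (9.04% of all regions) or in low and normal glucose only (3.15%). The other 3 were each in a single list. Of all regions shared by exactly 2 lists, those of galactose and low glucose were the most frequent, while all such 7SL regions were of galactose and normal glucose. The same split for other short RNAs is given below, and it is not particular to 7SL. No test of this difference was made, since the loci are near-copies of one another and not independent.

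**Figure D5:**
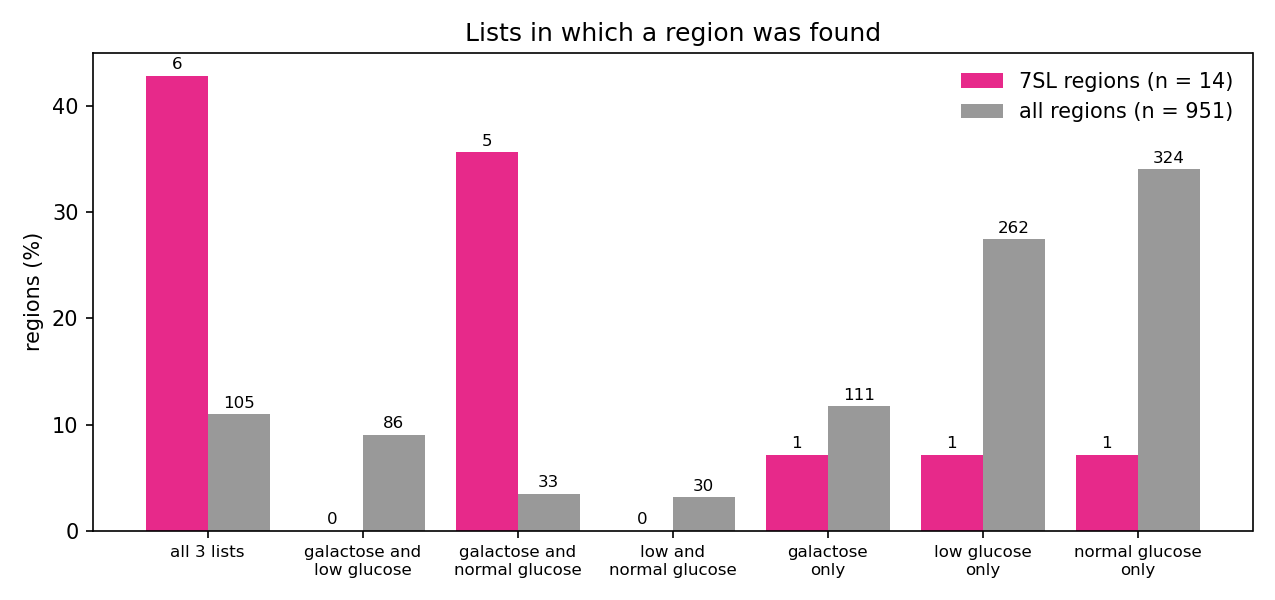
Share of regions (merged overlapping peaks) by the lists that hold them, for the 14 7SL regions and all 951 regions; the number of regions stands above each bar. The 7SL regions are in all 3 lists (6) or in galactose and normal glucose (5), apart from 3 in a single list.

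Counted by peak, 6 of 13 galactose 7SL peaks overlapped a low glucose peak, against 57.0% of all galactose peaks, and 12 of 13 overlapped a normal glucose peak, against 41.2%. Of the low glucose 7SL peaks 6 of 7 overlapped a galactose peak, against 39.7%, and 6 of 7 a normal glucose peak, against 27.9%. Of the normal glucose 7SL peaks 12 of 13 overlapped a galactose peak, against 28.3%, and 6 of 13 a low glucose peak, against 27.3%. The galactose peak without a normal glucose counterpart was that of RN7SL752P, the low glucose peak without a galactose or normal glucose counterpart that of RN7SL151P, and the normal glucose peak without a galactose counterpart that of RN7SL546P. With the same start and end required, 5 of 13 galactose peaks met a normal glucose peak and 5 of 13 the other way round. The 12 of 13 thus rests on overlaps of at least 1 nt, among them that of the wide galactose RN7SL1 peak with the normal glucose peak on base 180. Another is that of the galactose RN7SL767P peak on base 180 with the end of a normal glucose peak whose last site is base 102. A stricter overlap rule, set by the length of the shorter peak, gave 11 of 13 both ways.

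Most 7SL peaks held a lone site. Merged peaks, wider than 101 nt, numbered 4 of 13 in galactose, where 42.4% of all peaks were merged, 2 of 7 in low glucose, with 52.9% of all peaks, and 3 of 13 in normal glucose, with 35.2%. The widest was 201 nt in galactose (RN7SL1), 119 nt in low glucose (RN7SL1) and 204 nt in normal glucose (RN7SL767P).

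None of 28 protein-coding genes, of the SRP pathway or listed beside it, had a peak in any of the 3 lists. Over all 20046 protein-coding genes the share with a peak in any list was 2.79%, so a count of 0 among 28 is not set apart from it. The 28 included the SRP proteins (SRP9, SRP14, SRP19, SRP54, SRP68 and SRP72), the SRP receptor (SRPRA and SRPRB), the SEC61 channel and its partners (SEC61A1, SEC61A2, SEC61B, SEC61G, SEC62, SEC63 and TRAM1), the TRAP complex (SSR1, SSR2, SSR3 and SSR4) and the signal peptidase (SPCS1, SPCS2, SPCS3, SEC11A and SEC11C). The others were BCAP31 and, listed beside the pathway, SSB (La), TRIM21 and RO60. All 28 are annotated genes, and a missing peak says only that no site passed the authors' threshold there.

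Among other short RNAs of RNA polymerase III, 7SK, which holds back the elongation factor P-TEFb, had 2 peaks in galactose and 5 in low glucose, against 15 in normal glucose, over 11 loci. U6, the spliceosomal RNA, had 5, 5 and 7 peaks over 7 loci. 5S rRNA and its copies had 8, 13 and 35 peaks over 40 loci, and Y RNAs had none. Regions in all 3 lists numbered 2 of 16 for 7SK, 4 of 8 for U6 and 5 of 40 for 5S rRNA, beside the 6 of 14 for 7SL. Regions in galactose and normal glucose only numbered 0 for 7SK, 1 for U6 and 2 for 5S rRNA. Those in galactose and low glucose only numbered 0, 0 and 1, and those in low and normal glucose only 2, 0 and 3. U6 thus had its single region of exactly 2 lists in the same pair as 7SL. The galactose list thus held as many 7SL peaks as the normal glucose list, and the U6 counts of these lists, 5 and 7, were close. 7SK and 5S rRNA had far fewer peaks in galactose. These are raw counts from lists of unlike length, 337 peaks in galactose against 495 in normal glucose. These counts were not tested against one another.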

How the data were processed

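CLIP-seq of GAPDH was done on 6 samples of MOLM-13 cells, 2 for each of 3 conditions. cutadapt, STAR and hg38 (GRCh38) are named in the submitters' processing notes, with no versions of the tools. The authors called crosslink sites with PureCLIP and deposited 1 joined list per condition with chromosome, start, end, gene identifier and symbol, and no counts, scores or p-values. The mapping of reads with several places, the site threshold and the joining rule decide which near-identical copy can appear.

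Members were the 33 pairs of a peak and a gene whose symbol starts with RN7SL, each of which matched GENCODE release 44 by identifier and position. Members and lists were chosen with earlier results of these data known. Positions were read as 1-based with both ends included. Strand was that of GENCODE. Copies were aligned to RN7SL1 end to end (match 2, mismatch -1, gap open -5, gap extend -0.5, Biopython 1.88). 20-mers and 30-mers were counted on both strands of the primary chromosomes of hg38. Peaks overlapping by 1 nt were called shared. Sequences are those of hg38, and some 7SL sequences are not reported here. Named genes were all 7SL loci, any gene given to the same peak and SRP genes with a peak, of which there were none; the SRP list itself is named in full. RN7SL5P, RN7SL4P and RN7SL128P were named after their values were seen. The k-mer counter, alignment and merging were tested on simulated data. Alternatives were other units, overlap rules, end windows and subsets of peaks.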

Additional observations from a re-analysis of the deposited data

How the results depend on the processing

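No paired analysis was possible because the 2 samples of each condition were joined into 1 list, and for the same reason no sample could be left out. Of 63 alternative values, 44 stayed close to the reported one and 19 moved by more. The 7SL peak counts (galactose, low glucose and normal glucose) were 5, 4 and 4 without peaks also given to a further gene, 6, 4 and 7 without recurrent peaks, and 6, 2 and 5 for pseudogene copies only. Counting loci gave 8 in galactose and 8 in normal glucose, and requiring the middle inside the copy gave 4 in low glucose. Adding peaks that hold a 20-mer of RN7SL1, an alternative chosen after seeing the data, gave 11 in low glucose. Low glucose had the lowest count in each of these, level with normal glucose without peaks of a further gene. The share of normal glucose peaks in 7SL was 1.28% without peaks of a further gene. Regions in all 3 lists numbered 3 of 22 with the same start and end, 3 of 7 without recurrent peaks and 3 of 5 without peaks of a further gene, beside 6 of 14. Galactose peaks with an identical normal glucose peak numbered 5, as did the converse. Depth limits all counts, since the lists hold no reads, and a site below the authors' threshold is not listed.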

Other observations

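Outside the 7SL loci, 7 peaks held a 20-mer of RN7SL1, namely 1 galactose, 4 low glucose and 2 normal glucose peaks. They lay at ENPP2 (all 3 lists, 3 such 20-mers from bases 28 to 49), RCOR1 (normal glucose, bases 25 to 49), and SRGAP2C, DNAH2 and MYHAS (low glucose, bases 256 to 281, 261 to 281 and 4 to 37). All of these stretches lie in the repeated ends of 7SL, and none reaches bases 50 to 255. These genes were chosen after their values were seen.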
